A study of Mus musculus with 8 samples.

Results

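The genes described here encode the machinery that loads, docks and fuses synaptic vesicles, and they were read from hippocampal RNA of male mice on whole-transcript arrays. They were chosen by symbol in the platform annotation, as every numbered synaptotagmin, syntaxin, syntaxin-binding protein, SNAP, VAMP, complexin and RIM, every UNC13, synapsins 1 to 3, SV2 proteins a to c, and RAB3 proteins a to d. The brightest row was to stand for a gene with several rows, and no gene needed it. This gave 70 genes on 70 of the 22206 transcript clusters (the array's units of measurement, about 1 per gene), which carry 19505 distinct symbols. Snap91, the clathrin adaptor AP180, entered through its symbol and is not a SNARE.

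Transmitter release rests on a membrane fusion reaction. Synaptobrevin (a VAMP) on the vesicle zippers with syntaxin and SNAP-25 on the plasma membrane into the SNARE complex, UNC13 and syntaxin-binding proteins guide its assembly, complexins clamp it, and synaptotagmins trigger it when calcium enters. RIM and RAB3 proteins hold vesicles at the active zone, synapsins tether the reserve pool, and the hippocampus uses this machinery at its excitatory and inhibitory synapses, while other syntaxins and VAMPs serve traffic inside most cells.

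Dams had been dosed by mouth from postnatal day 1 to 4 with clothianidin, an insecticide of the neonicotinoid class whose target is the nicotinic acetylcholine receptor, at 65 mg/kg/day, a dose with no observed adverse effect, or with vehicle. Their male offspring were taken at 3 or 10 weeks of age. The 4 groups were vehicle at 3 weeks, clothianidin at 3 weeks, vehicle at 10 weeks and clothianidin at 10 weeks, with 2 arrays each and 8 in all. The labels name no strain, and they leave unsaid whether each array is its own animal or litter, so a p-value reflects the scatter of these samples alone, and that scatter may be technical. The offspring were exposed through the dam, and no internal dose was given.

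All values below are on the log2 intensity scale, where the array medians ran from 5.73 to 5.86. Of the excitatory neuron markers fixed for the tissue check, 10 of 11 were measured, with a mean level between 11.66 and 12.25 on the 8 arrays, and Prox1, the transcription factor of dentate granule cells, read 10.91 to 13.01. The arrays differed in Ttr, the transthyretin gene of the choroid plexus, which read 19.16 on the second vehicle array at 3 weeks, 18.82 on the first clothianidin array at 3 weeks, 18.25 on the first clothianidin array at 10 weeks, and 5.24 to 7.37 on the others. Those 3 arrays were the lowest of the 8 for Syt4, Cplx3 and Sv2a, or 4.29% of the release genes against 1.75% of all clusters, and the highest for 0 of the 70 against 1.62%. The distribution was narrowest on the first vehicle array at 3 weeks (SD 3.14 over clusters, 3.26 to 3.39 elsewhere), which was the lowest of the 8 for 18 of the 70 genes (25.7%, against 21.3% of all clusters).

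Most of these genes read in the upper part of all clusters. A mean at or above the median level was found for 59 of the 70, which is a rank among clusters and not a detection call. Syt8, Cplx4, Stx11 and Stx19 read below the lower quartile on all 8 arrays, and nothing shows that they were above background there. Paired arrays of 1 group correlated over the 70 genes at r between 0.988 and 0.994, and the median gap between them was 0.23 to 0.32, while each difference below is set against the standard error (SE) of its own gene in the limma model.

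**Figure D1:**
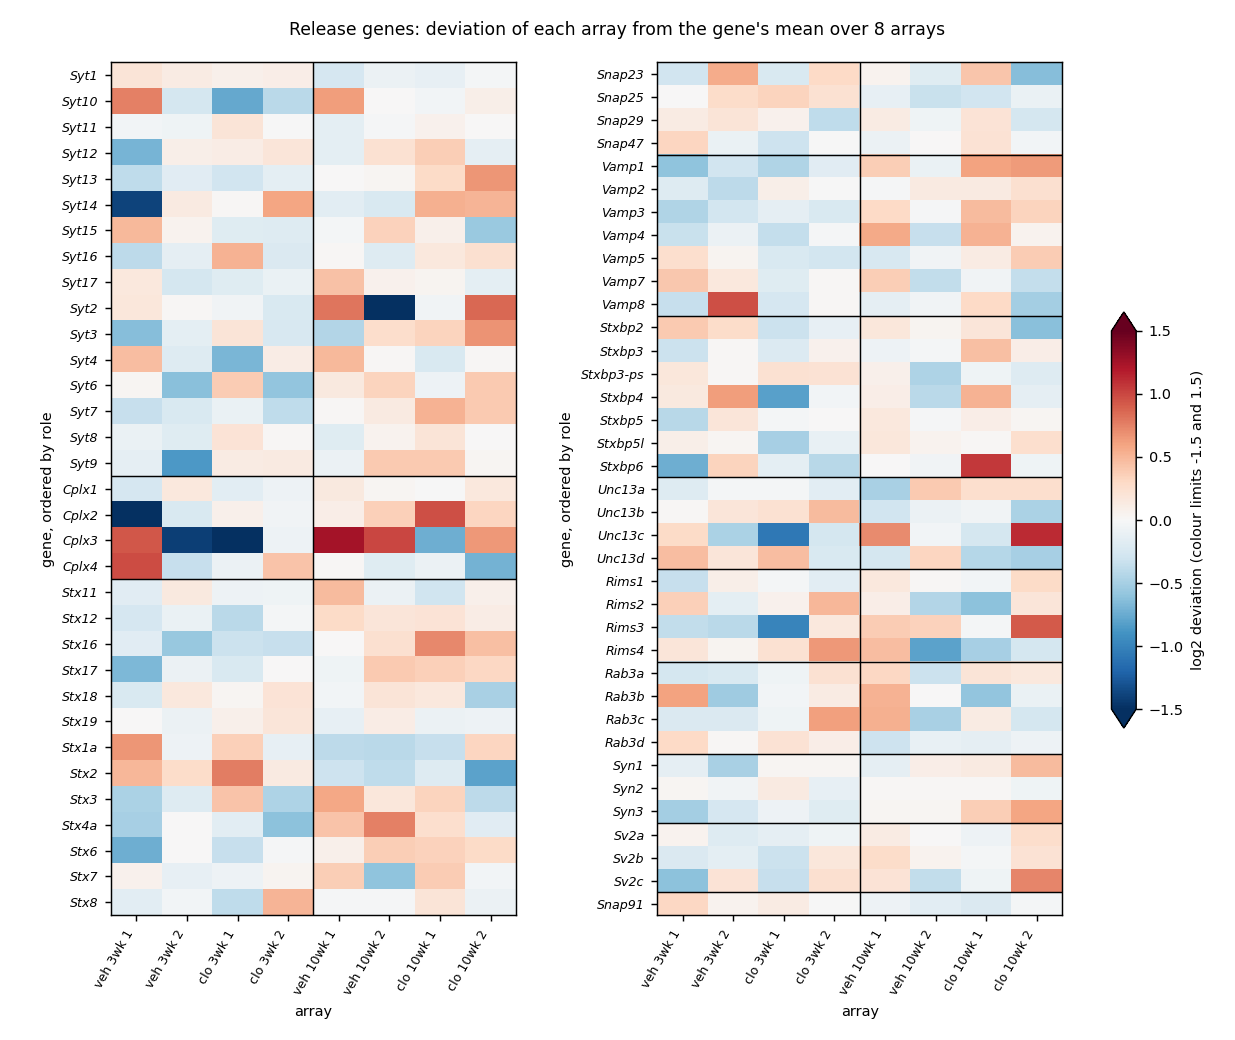
Deviation of each of the 8 arrays from the mean of that gene (log2 scale, blue lower, red higher, colour limits -1.5 and 1.5) for the 70 release genes, ordered by role from synaptotagmins to Snap91; the vertical line divides 3 from 10 weeks. Few rows change colour as a block at an exposure boundary, and Cplx2, Cplx3 and Syt14 have single arrays far from the rest.

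Promoter sequences are shown for the 3 genes that passed the age test, Vamp1, Stx16 and Stx2, and for Syn1. Of the 55 genes with a promoter entry, Syn1 alone had a window that held the searched part of the neuronal repressor element. The windows are the 250 bases before the annotated start, read 5′ to 3′ on the gene's strand from RefSeq on GRCm38.p6: Vamp1 at chr6:125215331-125215580 (plus), Stx16 at chr2:174076801-174077050 (plus, the first of 2 entries), Stx2 at chr5:129008573-129008822 (minus, the first of 2 entries) and Syn1 at chrX:20920919-20921168 (minus). Capitals mark matches to GGGCGG (the GC box) in Vamp1 and Stx2, and to TTCAGCACC (the left part of the repressor element RE1) and TGACGTCA (the cAMP response element) in Syn1.
Vamp1: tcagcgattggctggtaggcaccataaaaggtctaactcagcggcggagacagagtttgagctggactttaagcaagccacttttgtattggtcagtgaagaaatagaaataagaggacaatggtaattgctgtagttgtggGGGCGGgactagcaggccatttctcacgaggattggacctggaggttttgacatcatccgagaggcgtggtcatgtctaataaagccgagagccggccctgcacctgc
Stx16: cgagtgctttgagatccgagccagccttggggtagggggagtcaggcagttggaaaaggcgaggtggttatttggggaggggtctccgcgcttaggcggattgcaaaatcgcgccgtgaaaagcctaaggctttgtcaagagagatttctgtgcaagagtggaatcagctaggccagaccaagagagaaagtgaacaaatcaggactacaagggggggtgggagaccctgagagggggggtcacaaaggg
Stx2: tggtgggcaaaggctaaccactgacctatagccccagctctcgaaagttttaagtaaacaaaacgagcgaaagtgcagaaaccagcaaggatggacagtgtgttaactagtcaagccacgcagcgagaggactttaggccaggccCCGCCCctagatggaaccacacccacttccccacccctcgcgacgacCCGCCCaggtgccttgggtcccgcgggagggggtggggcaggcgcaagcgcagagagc
Syn1: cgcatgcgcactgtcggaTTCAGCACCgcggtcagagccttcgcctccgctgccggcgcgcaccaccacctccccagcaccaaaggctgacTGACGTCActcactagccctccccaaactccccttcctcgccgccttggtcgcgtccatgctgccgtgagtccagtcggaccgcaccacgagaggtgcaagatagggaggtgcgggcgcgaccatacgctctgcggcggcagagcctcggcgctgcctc
Both strands were searched, and a GC box on the minus strand reads CCGCCC. The second Stx16 entry, which is not shown, holds 1 GC box. Promoters were found for 55 of the 70 genes, with 70 entries. A GC box lay in 43 of those entries (61.4%) against 32.7% of 32851 mouse promoters of this length, and the median GC content was 61% against 52.4%. RE1's left part lay in 1 entry (1.43%, against 0.301%) and the cAMP response element in 2 (2.86%, against 1.55%), in Syn1 and Stxbp3. These are matches of letters and were not tested for any link to the levels below.

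Age was the comparison in which single release genes passed the test. Over all 8 arrays, 3 of the 70 differed between 10 and 3 weeks at an adjusted p under 0.05 in limma (4.29%, against 11.2% of all clusters). Vamp1 and Stx16 rose (2 genes, 2.86%, against 6.37%) and Stx2 fell (1 gene, 1.43%, against 4.84%). These are smaller shares than over the array as a whole, a contrast that was not tested. The share with an unadjusted p under 0.05 was also lower, at 16 of 70 (22.9%, against 29.5%), while groups that did not overlap were about as frequent, at 15 of 70 (21.4%, against 19.7%). In whole tissue, fewer cells of a type and less RNA per cell cannot be told apart.

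Vamp1 encodes a synaptobrevin, a vesicle SNARE best known from spinal cord and brainstem. It read 11.23 and 11.54 in the vehicle arrays and 11.38 and 11.66 in the clothianidin arrays at 3 weeks, and 12.2 and 11.73, then 12.43 and 12.47, at 10 weeks. All 4 older arrays stood above all 4 younger ones, the second vehicle array only by a small step. The mean went from 11.45 ± 0.19 to 12.21 ± 0.34 (SD, n = 4 with both exposures together), a log2 difference of 0.76 ± 0.20 (SE; 1.69-fold, adjusted p = 0.0365). Within the vehicle arrays it was 0.58 ± 0.28 (adjusted p = 0.293) and within the clothianidin arrays 0.93 ± 0.28 (adjusted p = 0.132), so neither passed alone. The call was lost without 6 of the 8 arrays in turn (0.64 to 0.87, adjusted p 0.039 to 0.118).

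Stx16, a syntaxin of endosome to trans-Golgi traffic, also rose. The 3-week arrays read 9.21 and 8.82 with vehicle and 9.06 and 9.04 with clothianidin. At 10 weeks they read 9.39 and 9.62 with vehicle and 10.1 and 9.83 with clothianidin. The ages did not overlap, and the clothianidin arrays at 10 weeks were the highest. The mean went from 9.03 ± 0.16 to 9.73 ± 0.30 (SD, n = 4), a log2 difference of 0.70 ± 0.19 (SE; 1.63-fold, adjusted p = 0.0412). Without any 1 of the 8 arrays the difference stayed between 0.60 and 0.80, but the adjusted p ran from 0.0507 to 0.132.

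Stx2, a plasma membrane syntaxin also known as epimorphin and found in many cell types, fell. It read 8.7, 8.47, 8.97 and 8.33 at 3 weeks (vehicle, then clothianidin) and 7.89, 7.82, 8.01 and 7.4 at 10 weeks. Every older array lay below every younger one. The mean went from 8.62 ± 0.28 to 7.78 ± 0.27 (SD, n = 4), which is 1.79-fold lower (log2 difference -0.84 ± 0.22, adjusted p = 0.037). The fall was -0.73 ± 0.32 with vehicle and -0.95 ± 0.32 with clothianidin, with adjusted p of 0.242 and 0.162. Leaving out each array gave -1.0 to -0.68 and lost the call in 6 of 8 cases (adjusted p 0.0474 to 0.132).

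Markers of other cells moved with age beside these calls. All 9 measured oligodendrocyte markers of 10 listed were lower at 10 weeks, 8 of them past the threshold, with a median difference of -1.52, and none was at 0. Their mean level ran from 12.79 to 13.94 in the vehicle arrays at 3 weeks and from 13.13 to 13.43 with clothianidin, and at 10 weeks from 11.72 to 11.73 and from 11.86 to 12.05. Of the inhibitory neuron markers 7 of 9 were higher (median 0.35, none past the threshold), and of the excitatory ones 7 of 10 (median 0.12, 1 past it). All 3 oligodendrocyte precursor markers (1 past it) and all 10 choroid plexus markers (none past it, median -0.80) were lower. Over all clusters 11.2% passed and 56% were higher. The share of these shifts in the results for Vamp1, Stx16 and Stx2 was not tested. The differences changed little when the Ttr level was added to the model, at 0.75 for Vamp1, 0.69 for Stx16 and -0.75 for Stx2, while the adjusted p moved just past the threshold, to 0.0512, 0.0601 and 0.0578. Without the 3 arrays of high Ttr they were 0.77, 0.54 and -0.89 (adjusted p = 0.237, 0.343 and 0.181), in a fit of 5 arrays in which 0 of the 22206 clusters passed.

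**Figure D2:**
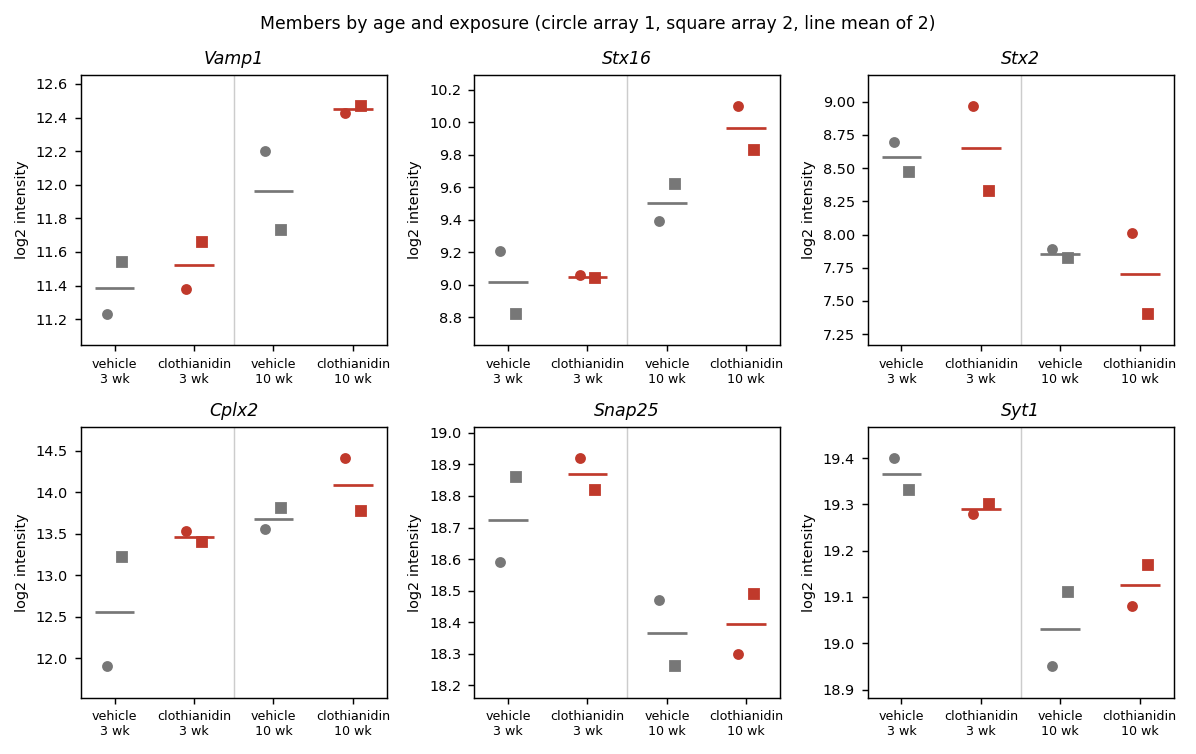
Log2 intensity of Vamp1, Stx16, Stx2, Cplx2, Snap25 and Syt1 on each of the 8 arrays (circle array 1, square array 2, line the mean of 2; grey vehicle, red clothianidin), each panel with its own scale that does not start at 0. Vamp1 and Stx16 are higher and Stx2 lower in all 4 arrays at 10 weeks, and the first vehicle array at 3 weeks is the lowest for Cplx2, at 11.9.

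The other SNAREs of the release site did not pass. Snap25, the plasma membrane SNARE that forms the fusion complex with syntaxin and synaptobrevin, read 18.59, 18.86, 18.92 and 18.82 at 3 weeks and 18.47, 18.26, 18.3 and 18.49 at 10 weeks. All older arrays were below all younger ones, with a difference of -0.42 ± 0.19 (adjusted p = 0.163). Vamp2, the main synaptobrevin of forebrain vesicles, read 16.96 to 17.44 at 3 weeks and 17.33 to 17.59 at 10 weeks, with an overlap and a difference of 0.25 ± 0.18 (adjusted p = 0.391). Stx1a, the release syntaxin, read 7.77, 7.03, 7.46 and 6.99 and then 6.72, 6.7, 6.76 and 7.43, with the second clothianidin array at 10 weeks inside the younger range (-0.41 ± 0.24, adjusted p = 0.283).

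Vamp3, Stx6 and Stx4a, SNAREs of endosomes and other membranes, had positive age differences that did not pass. Vamp3, the cellubrevin of recycling endosomes, read 6.02, 6.2, 6.34 and 6.25 at 3 weeks and 6.77, 6.46, 6.95 and 6.81 at 10 weeks, with no overlap (0.55 ± 0.19, adjusted p = 0.0813). Stx6, a Golgi and endosome syntaxin, read 11.57, 12.31, 11.96 and 12.28 and then 12.38, 12.67, 12.65 and 12.59 (0.54 ± 0.22, adjusted p = 0.125). The younger and older arrays again did not overlap. Stx4a, a plasma membrane syntaxin, read 7.82 and 8.33 with vehicle at 3 weeks and 8.75 and 9.08 at 10 weeks, and 8.16 and 7.7 and then 8.57 and 8.15 with clothianidin. The vehicle ages were separate and the clothianidin ages overlapped, with an age difference of 0.64 ± 0.22 over all arrays (adjusted p = 0.0829). Stx4a did pass the threshold when the Ttr level was added to the model.

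By family, the 13 syntaxins had 9 positive and 4 negative age differences (-0.84 to 0.70), with 1 call in each direction. The 7 VAMPs had 5 and 2 (-0.20 to 0.76), with 1 call, and the SNAP-25 family had 2 and 2 (-0.42 to 0.05), with none. Of the 7 syntaxin-binding genes, 5 were higher and 2 lower (-0.32 to 0.48) and none passed. Over all clusters 11.2% passed and 56% had a positive difference. Neither these families nor those below were tested against those shares. Stxbp3-ps is a pseudogene near-identical to Stxbp3, and how the array divides signal between them is uncertain.

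Complexins, the clamps of the SNARE complex, had age differences from -0.48 to 1.09, and none passed. Cplx2, the complexin of hippocampal excitatory neurons, read 11.9 and 13.22 with vehicle and 13.53 and 13.4 with clothianidin at 3 weeks. At 10 weeks it read 13.55 and 13.81, then 14.41 and 13.77. The ages did not overlap, and the first vehicle array at 3 weeks was more than a log2 unit below the next. The difference of 0.87 ± 0.28 had an adjusted p of 0.0691, became 1.07 (adjusted p = 0.0216) with the Ttr level as a covariate and 1.07 (adjusted p = 0.156) without the 3 arrays of high Ttr, and ran from 0.54 to 1.20 when arrays were left out in turn, passing without the second vehicle array at 3 weeks (adjusted p = 0.0167). That first vehicle array was also the lowest of the 8 for Prox1, at 10.91, and the part of this in the result was not tested. Cplx1 read 13.91 to 14.32 at 3 weeks and 14.15 to 14.31 at 10 weeks and overlapped (0.16 ± 0.19, adjusted p = 0.621).

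Cplx3, a complexin of retina and deep cortical layers, was chosen after its values were seen because its 3 lowest arrays were those of high Ttr. It read 6.33, 3.99, 3.78 and 5.32 at 3 weeks and 6.65, 6.4, 4.67 and 6.05 at 10 weeks. Within the vehicle group at 3 weeks the arrays differed by more than 2 log2 units (SD 1.65, n = 2), wider than its age difference of 1.09 ± 0.50 (adjusted p = 0.169). Cplx3 read below the lower quartile on 1 of the 8 arrays (3.78, against 3.99) and below the array median on 4.

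Synaptotagmins, the calcium sensors, had 13 positive and 3 negative age differences among 16 genes, with a median of 0.18 and none past the threshold. Syt1, the fast sensor of forebrain synapses, read 19.4, 19.33, 19.28 and 19.3 at 3 weeks and 18.95, 19.11, 19.08 and 19.17 at 10 weeks. Every older array was lower, but by little: the difference was -0.25 ± 0.18 (adjusted p = 0.384), and it was 0.12 after quantile normalisation, so its direction depends on the scaling. Syt7, a slow, high-affinity sensor, read 10.96, 11.07, 11.2 and 10.92 at 3 weeks and 11.32, 11.44, 11.82 and 11.7 at 10 weeks, with no overlap (0.53 ± 0.18, adjusted p = 0.0837). Within the clothianidin arrays its age difference was 0.70 ± 0.26 (adjusted p = 0.202). Syt13, another synaptotagmin, read 8.89, 9.1, 8.99 and 9.13 at 3 weeks and 9.28, 9.31, 9.56 and 9.94 at 10 weeks. The ages did not overlap (0.50 ± 0.19, adjusted p = 0.111 in limma), and within the clothianidin arrays the difference was 0.69 ± 0.27 (adjusted p = 0.217). Syt2, the fast sensor of inhibitory and hindbrain synapses, read 7.13, 6.98, 6.91 and 6.74 and then 7.77, 5.45, 6.91 and 7.83. Its paired vehicle arrays at 10 weeks stood more than 2 log2 units apart, and no age difference could be read from it (0.05 ± 0.41, adjusted p = 0.953). Its direction was not stable: the difference was -0.10 after quantile normalisation and -0.01 after centring each array on its median.

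The priming and docking genes were divided. Unc13a, the Munc13 of most excitatory terminals, read 10.53 to 10.69 at 3 weeks and 10.24, 11.12, 10.98 and 10.98 at 10 weeks, so the first vehicle array at 10 weeks lay below all younger ones (0.21 ± 0.22, adjusted p = 0.568). Unc13b, another priming factor, read 6.39, 6.55, 6.6 and 6.85 at 3 weeks and 6.08, 6.29, 6.32 and 5.9 at 10 weeks. It was lower in all older arrays, with a difference of -0.45 ± 0.20 (adjusted p = 0.151). Rims1, an active zone scaffold that binds RAB3, read 12.38 to 12.82 and then 12.69 to 13.02, with overlap (0.22 ± 0.20, adjusted p = 0.491). Rims3, a short RIM, and Unc13c, the Munc13 best known from cerebellum, are added here after their values were seen. Rims3 read 6.26, 6.23, 5.65 and 6.79 at 3 weeks and 7.02, 6.98, 6.6 and 7.55 at 10 weeks (0.81 ± 0.28, adjusted p = 0.0862). Unc13c read 6.11, 5.35, 4.75 and 5.56 and then 6.53, 5.78, 5.56 and 6.94 (0.76 ± 0.34, adjusted p = 0.157). Both were higher on average at 10 weeks, with ages that overlapped. Rab3a, the vesicle GTPase, overlapped as well, at 15.57 to 16.06 and 15.51 to 16.14 (0.17 ± 0.21, adjusted p = 0.626). Among 4 genes each, UNC13 proteins (-0.45 to 0.76) and RIM proteins (-0.55 to 0.81) had 2 positive and 2 negative differences, and RAB3 proteins 1 and 3 (-0.31 to 0.17).

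The vesicle proteins themselves gave no call with age. Syn1, which ties vesicles to the cytoskeleton, read 15.03, 14.68, 15.2 and 15.2 at 3 weeks and 15.03, 15.27, 15.31 and 15.64 at 10 weeks, with overlap (0.29 ± 0.19, adjusted p = 0.357). Syn2 had the smallest age difference of the 70 genes, at 16.25 to 16.5 and 16.3 to 16.39, with a difference of 0.00 ± 0.18. Syn3, the synapsin of early neuronal development and of adult granule cell progenitors, read 10.7, 10.96, 11.13 and 11.03 at 3 weeks and 11.23, 11.23, 11.57 and 11.8 at 10 weeks. Its ages did not overlap (0.50 ± 0.19, adjusted p = 0.0998). Sv2a, the vesicle glycoprotein that binds levetiracetam, read 13.51 to 13.76 and 13.63 to 13.97 (0.17 ± 0.19, adjusted p = 0.6), and Snap91 read 15.83 to 16.14 and then 15.61 to 15.8, lower in all older arrays (-0.24 ± 0.18, adjusted p = 0.418).

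Over the 70 genes, 47 were higher and 23 lower at 10 weeks (67.1% above 0, against 56% of all clusters). Their median difference was 0.15 against 0.07 for all clusters. The scaling bears on this: the medians became 0.02 and 0 after quantile normalisation and 0.09 and 0 after median centring, and the share of calls over all clusters that were higher at 10 weeks went from 56.8% to 48% and 43.6%. The level bears on it too, as 59 of the 70 genes lie at or above the median level. Among clusters at or above that level, the median difference was 0.17 for release genes and 0.17 for all. Within the vehicle arrays 0 of 70 passed the test (against 0.315% of clusters) and 3 had an unadjusted p under 0.05 (4.29%, against 19%). Within the clothianidin arrays 0 passed (against 0.563%) and 9 had an unadjusted p under 0.05 (12.9%, against 17.7%).

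**Figure D3:**
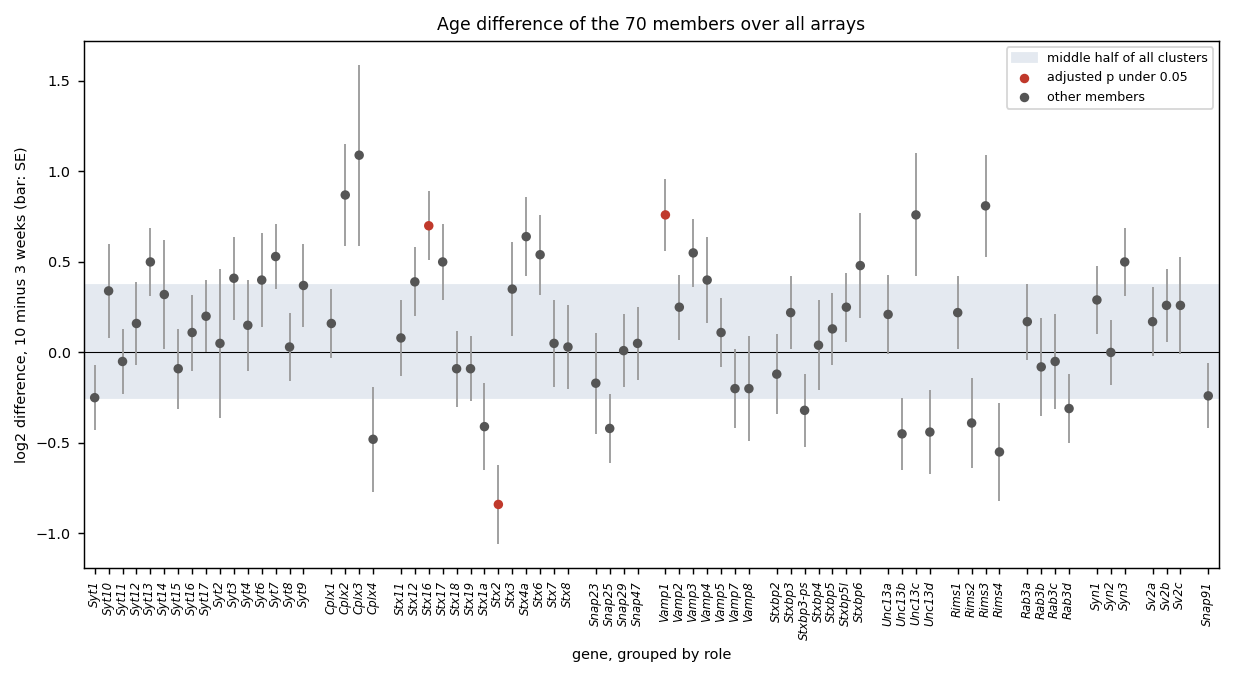
Log2 difference of 10 against 3 weeks over all arrays for each of the 70 release genes by role (points; bars are the SE of the limma model, 4 arrays per age), with the interquartile range of all clusters as a grey band and genes at an adjusted p under 0.05 in red. Vamp1 at 0.76, Stx16 at 0.70 and Stx2 at -0.84 are the points in red, and Cplx3, at 1.09, is the highest point and has one of the widest bars.

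Neonatal clothianidin left no release gene past the threshold at either age. At 3 weeks 0 of 70 passed in limma (against 0% of clusters), and the lowest adjusted p among them was 0.846. An unadjusted p under 0.05 was found for 4 (5.71%, against 5.9% of clusters), and clothianidin and vehicle arrays did not overlap for 25 (35.7%, against 34.4%), 15 of them higher after clothianidin and 10 lower (21.4% and 14.3%, against 17.2% for each direction). At 10 weeks 0 passed (against 0%), none had an unadjusted p under 0.05 (0 of 70, against 3.69%), the lowest adjusted p was 0.997, and the arrays did not overlap for 19 (27.1%, against 30.7%), 14 higher and 5 lower (20% and 7.14%, against 15.4% and 15.3%). Without regard to direction, these shares are near or under the background. By direction, groups apart were above it on the higher side and below it on the lower side at both ages, a split that was not tested. The difference was above 0 for 41 genes at 3 weeks (58.6%, against 49.5%) and 40 at 10 weeks (57.1%, against 50.8%). The median difference was 0.03 at 3 weeks and 0.06 at 10 weeks, against 0 and 0.01 for all clusters. For all clusters at or above the median level it was 0.06 at 3 weeks and 0.06 at 10 weeks. With 2 arrays a group, such counts do not show that the genes were unaffected.

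Cplx2 had the second largest positive difference at 3 weeks. Its vehicle arrays read 11.9 and 13.22 and its clothianidin arrays 13.53 and 13.4. These did not overlap, but the gap to the second vehicle array was small beside that within the vehicle pair. The difference was 0.90 ± 0.40 (unadjusted p = 0.0445, adjusted p = 0.846). It shrank to 0.24 once the first vehicle array was left out. At 10 weeks it was 0.41 ± 0.40, and the mean over both ages was 0.66 ± 0.28 (adjusted p = 0.774).

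Syt14, a synaptotagmin without calcium binding, had the largest positive difference at 3 weeks. It read 6.69 and 8.22 with vehicle and 8.1 and 8.67 with clothianidin at 3 weeks, and 7.92 and 7.85 against 8.62 and 8.59 at 10 weeks. The groups overlapped at 3 weeks and were clearly apart at 10. The difference was 0.93 ± 0.42 at 3 weeks (adjusted p = 0.846; 0.16 to 1.69 without each array in turn) and 0.72 ± 0.42 at 10 weeks (adjusted p = 0.997). Averaged over both ages it was 0.83 ± 0.30 (unadjusted p = 0.0183, adjusted p = 0.774). Of that average, 2 of the 70 genes, Syt14 and Cplx2, had an unadjusted p under 0.05 (2.86%, against 6.17% of clusters), and 0 passed the adjusted threshold (against 0%).

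The negative differences at 3 weeks were led by a synaptotagmin and a syntaxin-binding gene. Syt10, a synaptotagmin linked to the release of growth factors such as IGF-1 and induced by seizures, read 11.15 and 10.13 with vehicle and 9.63 and 10 with clothianidin. The groups did not overlap at 3 weeks (-0.82 ± 0.36, adjusted p = 0.846; -1.34 to -0.32 without each array in turn). At 10 weeks they did, at 11.02 and 10.41 against 10.36 and 10.49 (-0.29 ± 0.36, adjusted p = 0.997). Stxbp4, known as synip, a syntaxin 4 binding protein, read 8.61 and 9.08 against 7.65 and 8.42 at 3 weeks, with no overlap (-0.81 ± 0.36, adjusted p = 0.846). At 10 weeks it read 8.56 and 8.05 against 8.98 and 8.32, which overlapped and ran the other way (0.35 ± 0.36). The difference between its effects was 1.15 ± 0.51 (unadjusted p = 0.0432, adjusted p = 0.998), and Stxbp4 was the 1 of 70 genes (1.43%, against 3.13% of clusters) with an unadjusted p under 0.05 there, while 0 passed the adjusted threshold (against 0%).

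**Figure D4:**
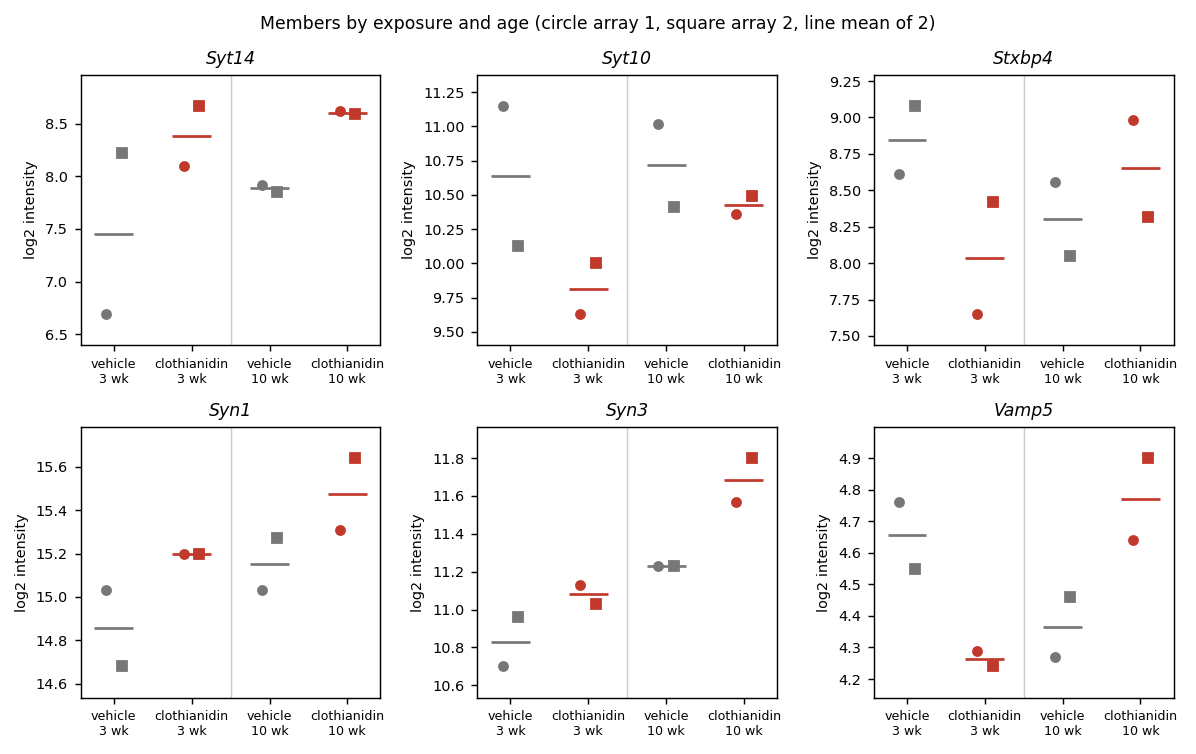
Log2 intensity of Syt14, Syt10, Stxbp4, Syn1, Syn3 and Vamp5 on each of the 8 arrays (circle array 1, square array 2, line the mean of 2; grey vehicle, red clothianidin), each panel with its own scale that does not start at 0. Syn1 and Syn3 have both clothianidin arrays above both vehicle arrays at each age, and Vamp5 has them below at 3 weeks and above at 10 weeks.

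Clothianidin and vehicle arrays were apart in the same direction at both ages for 4 genes (5.71%, against 6.88% of clusters), and in all 4 the clothianidin arrays were the higher (5.71%, against 3.48% of clusters). Syn1 read 15.03 and 14.68 against 15.2 and 15.2 at 3 weeks and 15.03 and 15.27 against 15.31 and 15.64 at 10 weeks. Its mean effect was 0.33 ± 0.19 (adjusted p = 0.792). Syn3 read 10.7 and 10.96 against 11.13 and 11.03, then 11.23 and 11.23 against 11.57 and 11.8, with a mean effect of 0.35 ± 0.19 (adjusted p = 0.792). For Vamp3 the mean effect was 0.23 ± 0.19 (adjusted p = 0.84), and for Syt11, a vesicle synaptotagmin that does not bind calcium, it was 0.14 ± 0.18 (adjusted p = 0.907). No gene was lower at both ages (0 of 70, against 3.4%).

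Vamp5, a VAMP best known from muscle and endothelium, was the 1 gene apart in opposite directions (1.43%, against 3.83% of clusters). It read 4.76 and 4.55 against 4.29 and 4.24 at 3 weeks and 4.27 and 4.46 against 4.64 and 4.9 at 10 weeks. These values lie near the lower quartiles of the arrays, 3.85 to 4.13, and below their medians.

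Companion genes that act beside this machinery were followed as 4 lists of 103 genes, of which 95 were measured. With age 6 of the 95 passed (6.32%, against 11.2% of clusters), 4 higher and 2 lower, with a median difference of 0.16. For clothianidin 0 of 95 passed in limma at 3 weeks and 0 at 10 weeks, with 6 (6.32%, against 5.9% of clusters) and 1 (1.05%, against 3.69%) at an unadjusted p under 0.05.

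Each list's share of calls stood below that of all clusters (11.2%). In vesicle recycling 2 of 29 passed (6.9%). Sh3gl3, an endophilin of membrane curvature, read 7.65, 8.23, 7.7 and 8.13 at 3 weeks and 6.16, 6.5, 5.68 and 6.01 at 10 weeks. The ages were well apart, with a difference of -1.84 ± 0.22 (adjusted p = 0.00257) that passed without each array in turn (-1.99 to -1.70). Epn2, an epsin of clathrin coats, rose by 0.86 ± 0.25 (adjusted p = 0.0456), a call lost without 6 of the 8 arrays in turn (0.64 to 1.09). Among the fusion cofactors 2 of 20 passed (10%). Rab27a, a GTPase of secretory organelle docking, read 7.46, 7.45, 7.96 and 7.69 and then 8.68, 8.83, 8.55 and 8.28 (0.94 ± 0.19, adjusted p = 0.0139), and its call was lost without 2 of the 8 arrays (adjusted p up to 0.0547). Otof, the otoferlin of hair cell synapses, also passed (0.96 ± 0.27, adjusted p = 0.0462), but read below the lower quartile on 4 of the 8 arrays and lost its call without 7 of them in turn (0.63 to 1.29).

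Of the 21 active zone scaffold genes 1 passed (4.76%), Tspoap1, the RIM-binding protein that links calcium channels to RIM, which rose by 0.82 ± 0.20 (adjusted p = 0.0252; lost without 6 of the 8 arrays, 0.70 to 0.93). Of the 25 genes of vesicle membrane and transmitter loading 1 passed (4%), Slc18a2, the vesicular monoamine transporter, which read 5.66, 4.94, 5.62 and 5.19 at 3 weeks and 4.32, 4.58, 4.74 and 3.94 at 10 weeks. All 8 values lie below the array medians (5.73 to 5.86). The lowest, 3.94, is close to the lower quartile of its array, 3.91. Every older array was below every younger one (-0.96 ± 0.25, adjusted p = 0.0341), but the call was lost without 6 of the 8 (-1.16 to -0.76).

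After clothianidin at 3 weeks, 6 companion genes had an unadjusted p under 0.05, a share near that of all clusters, and none of them had an adjusted p below 0.846. They are given as values. Bin1, an amphiphysin, read 11.78 and 12.44 with vehicle and 12.96 and 12.69 with clothianidin (0.72 ± 0.29, unadjusted p = 0.033). Ap2s1, the small subunit of the AP2 clathrin adaptor, read 9.41 and 10.11 against 10.53 and 10.82 (0.91 ± 0.39, unadjusted p = 0.036). Napb, a cofactor that helps to take SNARE complexes apart, differed by 0.60 ± 0.26 (unadjusted p = 0.0441). These 3 genes lay on the higher side after clothianidin. On the lower side were Cadps, a priming factor of dense-core vesicles (-0.64 ± 0.27, unadjusted p = 0.0372), Synpr, the synaptoporin of mossy fibre terminals (-0.69 ± 0.29, unadjusted p = 0.0387) and Tspoap1 (-0.61 ± 0.28, unadjusted p = 0.0491). At 10 weeks the 1 companion gene with an unadjusted p under 0.05 was Rph3a, the rabphilin that binds RAB3 (0.73, unadjusted p = 0.0378, adjusted p = 0.997).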

How the data were processed

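Each cluster has 1 log2 intensity per array in the deposited table. The submitters' processing notes name RMA; joint normalisation of the 8 arrays is not given in the sources used here. No dim cluster was left out. Symbols came from the platform annotation, and all 70 were found in the RefSeq table of GRCm38.p6.

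A mean per group was fitted over all 22206 clusters in limma 3.58.1 under R 4.3.3 (4 residual degrees of freedom, default prior), with 7 contrasts, two-sided tests and Benjamini-Hochberg adjustment over all clusters (threshold 0.05). The precision is limited by 2 arrays per group. The fit was checked on simulated data. Replicate numbers carry no stated pairing, and arrays of the same number showed little shared deviation from their group means. Whether they share a litter or run was not tested.

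The genes and lists were chosen with earlier results of these data known. Named throughout were 16 central genes, genes past the threshold, up to 5 of the largest positive and negative differences among non-overlapping genes at an unadjusted p under 0.05, and up to 4 companion genes per list. Other named genes were chosen after their values were seen. Alternatives varied the threshold, prior, block, weights, normalisation, level minimum, cluster averaging, Ttr adjustment and each array.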

Additional observations from a re-analysis of the deposited data

Results flagged for a closer look

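Vamp5 was raised because both clothianidin arrays lay below both vehicle arrays at 3 weeks (-0.39) and above them at 10 weeks (0.41). The difference between these effects was 0.79 ± 0.37 (SE; unadjusted p = 0.0556, adjusted p = 0.998 in limma), so it did not pass the test of the difference itself. The same opposite pattern was found for 3.83% of all clusters.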

How the results depend on the processing

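Of 1490 values of single named genes under the alternatives, 1373 kept their direction and side of the threshold, 70 lost the call, 31 gained one and 16 turned sign. The 1490 come from 73 named values, most of them not called in the fit reported. Only the 3 release and 6 companion genes called with age could lose a call, so 1490 is not the base for the 70 losses. Of the 70 release genes, 3 were called with age in the fit reported (against 11.2% of all clusters) and 9 at an adjusted p under 0.1 (against 19.8%). At an unadjusted p under 0.05 with at least 1.5-fold 8 were called (against 20.6%), and after quantile normalisation 1 (against 9.23%). With the Ttr level as a covariate 2 were called (against 10.2%), Cplx2 and Stx4a, neither of them among the 3. Which release genes were called also changed when single arrays were left out. Companion genes went from 6 to 18 and 15 at the same 2 looser thresholds. Without the 3 arrays of high Ttr both counts were 0, and over all clusters calls ran from 628 to 2550 when arrays were left out. With the replicate number as a block 1 release gene, Stx2, was called, and the numbers did not pair the samples (deviations correlated between -0.27 and 0.14). The prior that follows the mean gave 10 companion genes. Under the looser 1.5-fold count the clothianidin comparisons gave 4 release and 6 companion genes at 3 weeks, 1 companion gene at 10 weeks, 1 release gene for the difference and 2 for the mean, and age gave 3 and 14 within vehicle and 9 and 13 within clothianidin arrays. The matching shares of all clusters are not given here, so these counts are not set against a background. Companion genes within vehicle arrays numbered 2 at an adjusted p under 0.1 and 1 after quantile normalisation or centring; within clothianidin arrays they numbered 0 without the high-Ttr arrays and 0 to 1 without each array. Sign turned with age for Cplx1 (-0.01), Syt1 (0.12), Syn2 (0.05) and Syt2 (-0.10) after quantile normalisation, for Syt2 after centring (-0.01), and with the Ttr covariate for Syt2 (-0.05) and Syn2 (0.02, and 0.02 without the high-Ttr arrays). Left-out arrays gave Syn2 -0.06 to 0.06, Syt2 -0.53 to 0.63 (of the 10-week arrays, -0.53 without vehicle 1 and -0.18 without clothianidin 2), Unc13a -0.01 to 0.43, Erc1 at 3 weeks after clothianidin -0.09 to 1.30, and Syt10 at 10 weeks -0.60 to 0.01. The cause of these changes was not tested. Averaging clusters of a gene changed no release gene, since each has 1.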
